A study of Rattus norvegicus with 4 samples.

Results

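The genes described here encode enzymes, membrane transporters and assembly factors (peroxins) of the peroxisome, measured in the liver of WNIN/Ob rats. They were chosen by name, as a list of 43 peroxisomal genes that also includes Vnn1, a gene linked to the same transcriptional programme. A gene was measured where a probe set carried its symbol alone, which held for 41 of the 43 genes among 14506 named genes on the array. The 2 genes left without a value were Acaa1a, whose probe set is shared with its near copy Acaa1b, and Decr2, whose probe set is shared with its neighbour Nme4. Liver RNA came from untreated male rats of the WNIN/Ob strain, 4 months old, fed stock diet, and the groups were the lean and the obese phenotype. RNA of 4 lean animals made 1 lean pool and RNA of 4 obese animals made 1 obese pool, and each pool was hybridised to 2 Affymetrix Rat Gene ST arrays, the original array and a technical replicate. The question the series puts is how baseline liver expression differs between the phenotypes. With 1 pool a phenotype there is no replicate check across animals and no test, so every value compares these pools, and the spread between the arrays of a pool is technical. The labels do not name a gene or mutation behind the obese phenotype.

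Peroxisomes are organelles bounded by 1 membrane that shorten very-long-chain and branched fatty acids, finish the side chain of bile acids, start the synthesis of ether lipids and burn several substrates with oxidases that release hydrogen peroxide. Acyl chains enter through ABC transporters of the ABCD family, are shortened by beta-oxidation or, when a methyl branch blocks it, first by alpha-oxidation, and leave as carnitine esters. Peroxins insert the membrane proteins, carry the enzymes in from the cytosol and divide the organelle. In rodent liver many of the beta-oxidation genes are induced through the nuclear receptor PPAR alpha, which binds DNA with RXR at direct repeats of a short core motif spaced by 1 base.

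Of the 41 measured genes 6 stood at least 1.5-fold apart between the pools, 3 higher and 3 lower in the obese pool. Crot, Vnn1 and Ehhadh were higher, and Crat, Hao2 and Hacl1 were lower. The promoters of these genes show the sequence context of the members with the largest differences. The RefSeq table of assembly GRCr8 gave promoters for 40 of the 43 genes, from 250 bases before to 50 bases after the start site. Genes were matched by symbol, and only protein-coding genes whose sequence held no letters besides A, C, G and T were kept. No promoter was left for Pex2, Pex6 and Vnn1. Each sequence below reads 5′ to 3′ on the strand of its gene, and capitals mark the closest match to the direct repeat AGGTCANAGGTCA where at most 3 of its 12 fixed letters differ. The order is Ehhadh (chr11:92746159-92746458, plus strand), Crat (chr3:34087050-34087349, minus strand), Hao2 (chr2:188913084-188913383, minus strand), Crot (chr4:26052874-26053173, plus strand) and Hacl1 (chr16:6869361-6869660, minus strand).
Ehhadh: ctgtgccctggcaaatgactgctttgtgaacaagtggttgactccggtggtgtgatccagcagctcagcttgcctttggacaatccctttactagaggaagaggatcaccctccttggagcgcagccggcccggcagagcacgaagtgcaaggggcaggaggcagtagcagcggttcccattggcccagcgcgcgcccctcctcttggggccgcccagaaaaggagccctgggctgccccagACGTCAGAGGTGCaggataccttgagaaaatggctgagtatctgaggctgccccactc
Crat: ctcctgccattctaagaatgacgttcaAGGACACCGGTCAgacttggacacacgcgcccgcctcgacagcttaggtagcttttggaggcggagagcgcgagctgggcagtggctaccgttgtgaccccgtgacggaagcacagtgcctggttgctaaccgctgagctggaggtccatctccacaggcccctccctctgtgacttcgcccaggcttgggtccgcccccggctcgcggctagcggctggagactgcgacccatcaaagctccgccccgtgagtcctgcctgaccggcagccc
Hao2: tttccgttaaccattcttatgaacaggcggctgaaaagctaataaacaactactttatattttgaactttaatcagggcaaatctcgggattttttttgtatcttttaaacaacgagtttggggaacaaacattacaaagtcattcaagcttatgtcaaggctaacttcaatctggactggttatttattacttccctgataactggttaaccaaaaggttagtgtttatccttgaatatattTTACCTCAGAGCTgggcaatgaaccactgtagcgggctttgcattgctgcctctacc
Crot: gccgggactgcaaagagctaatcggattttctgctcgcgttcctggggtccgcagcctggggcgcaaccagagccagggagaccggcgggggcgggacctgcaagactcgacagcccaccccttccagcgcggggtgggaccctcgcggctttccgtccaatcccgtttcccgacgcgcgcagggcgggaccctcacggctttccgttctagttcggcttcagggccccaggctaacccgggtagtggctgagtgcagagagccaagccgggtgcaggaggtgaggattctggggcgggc
Hacl1: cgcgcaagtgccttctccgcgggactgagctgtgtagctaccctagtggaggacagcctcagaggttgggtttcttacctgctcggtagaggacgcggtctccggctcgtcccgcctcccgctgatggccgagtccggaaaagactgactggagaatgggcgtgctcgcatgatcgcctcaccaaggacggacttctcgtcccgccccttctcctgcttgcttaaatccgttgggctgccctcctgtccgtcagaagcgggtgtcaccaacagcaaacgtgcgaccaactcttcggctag

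Both strands were searched, the other strand as TGACCTNTGACCT. The match in Crat differs from the repeat at 2 letters and lies at positions -223 to -211 from the start site. Those of Ehhadh and Hao2 differ at 3 letters and overlap the start site, with the match of Hao2 on the opposite strand, and the promoters of Crot and Hacl1 hold no match at this distance. Matches at 2 letters or fewer occurred in 3 of the 40 promoters (7.5%), against 3.25% of 21840 promoters of protein-coding genes. Besides Crat they were Amacr, with AGACCAAAGGTCA, and Ddo, with GGGTAACAGGTCA. At 3 letters or fewer the share was 22.5% of the 40 and 23.0% of all. The exact core AGGTCA, which the longer repeat contains, stood on either strand in 20% of the 40 promoters and in 14.2% of all. A match in this window is a description of letters and does not show binding, and sites farther from the start were not searched.

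Values are log2 intensities, averaged over the arrays of a pool. The 1.5-fold rule asked for that factor between the pool means, for a gap of 0.25 (log2) between the closest lean and obese arrays, and for a mean in the higher pool at or above the median of all genes (5.48), called the level filter here. Each fold is followed by its lowest and highest value when every lean array is set against every obese array, 4 pairs in all. The 3 higher members are 7.32% of the 41, against 2.19% of all 14506 genes, and the 3 lower members are again 7.32%, against 2.43%. Peroxisomal genes are mostly bright in liver, and 39 of the 41 reached the level filter, all but Abcd2 and Far1. Among the 7555 genes that reached it, 4.2% were 1.5-fold higher and 4.66% lower.

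Smaller differences leaned towards the obese pool. Differences were above 0 for 31 of the 41 genes (75.6%), against 63.6% of the genes that reached the level filter. Their median was 0.19 on the log2 scale, against 0.03 over all genes and 0.08 over those that reached the filter. For 25 members (61.0%) both obese arrays lay above both lean arrays, compared with 27.5% of all genes and 38.5% of those at or above the filter. For 6 members (14.6%), which were Acox2, Amacr, Crat, Hacl1, Hao2 and Far1, both obese arrays lay below both lean arrays, against 18.5% and 19.6%. With a factor of 1.2 and a gap of 0.1 the counts were 12 higher (29.3%, against 9.54% of all genes) and 3 lower (7.32%, against 5.14%). That rule counts only genes at or above the filter, and 1384 of those 7555 were higher and 745 lower. Against that background the share of lower members was the smaller one.

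**Figure D1:**
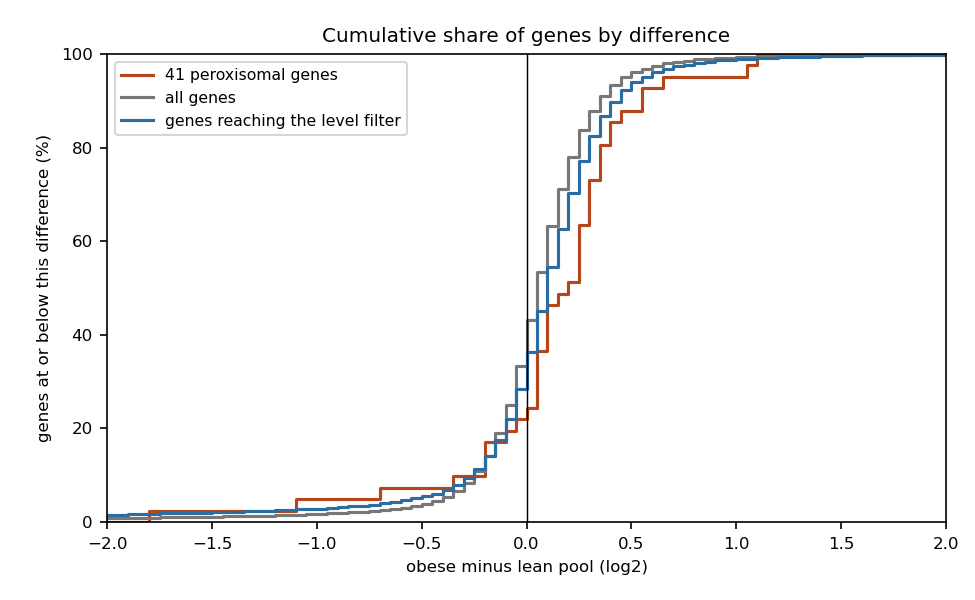
The lines give the share of genes (y axis, percent) at or below each difference between the obese and the lean pool (x axis, log2) for the 41 peroxisomal genes, for all 14506 genes and for the 7555 genes that reached the level filter. The line of the peroxisomal genes lies to the right of the others between 0 and 0.5, with a median of 0.19 against 0.03 and 0.08.

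The arrays themselves bear on these small differences. The obese original array read bright genes higher than its technical replicate, by a median of 0.13 over the genes that reached the level filter and of 0.07 over the 41 members. In the original arrays the median difference between the pools was 0.15 over genes that reached the filter and 0.18 over the members, and in the technical replicate arrays it was 0.01 and 0.12. The upper quartile of all genes was 7.21 for the obese original array, compared with 7.04 to 7.08 elsewhere. Hepatocyte markers were high in both pools, with albumin (Alb) at 13.61 and 13.72 on the lean arrays and 13.72 and 13.77 on the obese arrays, and all 8 hepatocyte markers had differences above 0, with a median of 0.12. The lean pool also carried transcripts of skeletal muscle. All 14 measured muscle markers were 1.5-fold lower in the obese pool, their summed intensity was 32920 and 34344 on the lean arrays and 486 and 501 on the obese arrays, and 11 of the 14 obese means were under the level filter. Markers of macrophages and of stellate and endothelial cells were lower too, and those of bile duct were not. The 5 measured bile duct markers were under the level filter in both pools. Their arrays overlapped in all 5, with a median difference of 0.03. All 8 macrophage markers had differences below 0, with a median of -0.25 and 5 without overlap, and their summed intensity was 2375 and 2407 on the lean arrays and 2170 and 1829 on the obese arrays. All 7 measured stellate and endothelial markers were likewise below 0, with a median of -0.34, and sums of 1886 and 2005 (lean) and 1002 and 870 (obese). Of these Des, which muscle also expresses, Col1a1 and Dcn were 1.5-fold lower, and the fall in the sums came mostly from them. Lrat, Pecam1, Lyve1 and Reln differed by -0.34, -0.31, -0.09 and -0.03, and the arrays of Reln overlapped. The part of these cells in the differences of the peroxisomal genes was not tested, and in bulk RNA fewer cells of a type and less RNA per cell cannot be told apart.

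**Figure D2:**
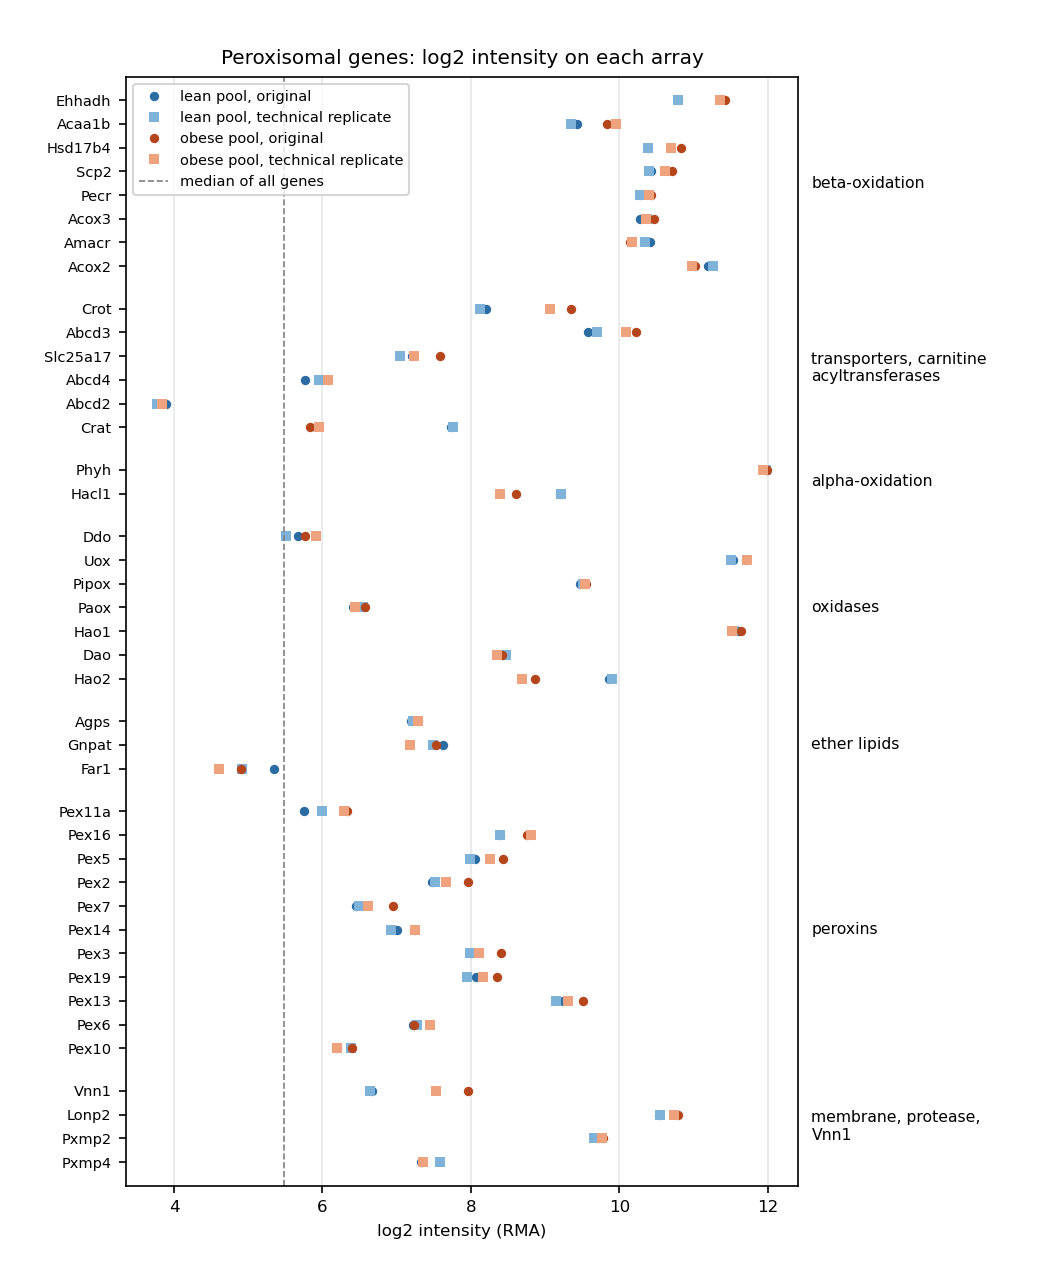
Each row is a measured peroxisomal gene, grouped by role, and each point is its log2 intensity (x axis) on 1 of the 4 arrays, with the dashed line at the median of all genes. Blue points (lean) and orange points (obese) are well apart for Crat, Hao2, Hacl1, Crot, Vnn1 and Ehhadh, and points of different genes are not comparable in level.

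Among the 8 measured beta-oxidation enzymes only Ehhadh passed the 1.5-fold rule, upwards, and none passed it downwards. Of the genes that reached the level filter 4.2% passed upwards and 4.66% downwards. The median of the 8 was 0.19. For 5 of them both obese arrays lay above both lean arrays, against 38.5% of the genes that reached the level filter. For Acox2 and Amacr both lay below, against 19.6%, so the lower count is near that share. Ehhadh, the bifunctional enzyme that hydrates and dehydrogenates the shortened chain, read 10.79 and 10.79 in the lean pool and 11.43 and 11.36 in the obese pool. Both obese arrays stood above both lean arrays, at 1.52-fold (1.49 to 1.56). This is close to the factor itself, and with quantile normalisation, with cyclic loess, without the obese original array and on the technical replicate arrays alone Ehhadh no longer passed. Acaa1b, a thiolase that releases acetyl-CoA, read 9.43 and 9.35 in the lean pool and 9.83 and 9.96 in the obese pool, which is 1.42-fold (1.32 to 1.52) higher and short of the factor, though on the technical replicate arrays alone it passed. The pools did not overlap for Acaa1b. Its value comes from a probe set that carries its symbol alone, and whether that set also reads the near copy Acaa1a was not tested.

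Hsd17b4, the second bifunctional enzyme, which handles branched chains and bile acid precursors, was 1.3-fold (1.25 to 1.36) higher, at 10.38 and 10.38 in the lean pool and 10.82 and 10.70 in the obese pool. Scp2, whose gene encodes a thiolase for branched chains and a sterol carrier, was 1.18-fold (1.14 to 1.23) higher. Pecr, a reductase of trans-2-enoyl-CoA, differed by 0.13 on the log2 scale. All 3 had arrays that did not overlap, with differences that became smaller from Hsd17b4 to Pecr.

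Acox2, the oxidase of bile acid intermediates and branched chains, read 11.19 and 11.26 in the lean pool and 11.02 and 10.98 in the obese pool, a difference of -0.22 with both obese arrays lower. Amacr, the racemase that prepares the same chains, read 10.42 and 10.34 in the lean pool and 10.15 and 10.17 in the obese pool, a difference of -0.22, again without overlap. Neither reached a factor of 1.2. Acox3, a further branched-chain oxidase, differed by 0.09 and its arrays overlapped, at 10.28 and 10.37 in the lean pool and 10.46 and 10.36 in the obese pool.

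Carnitine acyltransferases held the largest difference downwards and, with Vnn1, the largest upwards. Crot, the octanoyltransferase that turns shortened chains into carnitine esters for export to mitochondria, read 8.20 and 8.13 in the lean pool and 9.34 and 9.06 in the obese pool. The obese arrays lay above both lean arrays by 0.86 or more, which gives a pool fold of 2.06-fold (1.82 to 2.32). Crat, the acetyltransferase, which serves mitochondria as well as peroxisomes, read 7.73 and 7.76 in the lean pool and 5.84 and 5.96 in the obese pool. It was 3.59-fold (3.41 to 3.79) lower in the obese pool, with an array SD of 0.02 (lean) and 0.09 (obese). Crat is also abundant in skeletal muscle, and the muscle transcripts of the lean pool moved with it, with Acta1 at 13.08 and 13.12 on the lean arrays and 6.89 and 6.87 on the obese arrays. Their part in the Crat difference was not tested.

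Among the transporters Abcd3, the most studied ABC transporter of liver peroxisomes for branched chains and bile acid precursors, read 9.58 and 9.69 in the lean pool and 10.23 and 10.09 in the obese pool. Its arrays did not overlap. It was 1.44-fold (1.31 to 1.57) higher, and it passed the factor of 1.5 only on the original arrays and without the obese technical replicate array. Abcd4, a family member that works in lysosomal cobalamin transport, differed by 0.21. Slc25a17, a peroxisomal carrier of cofactors such as coenzyme A, differed by 0.28, and its obese arrays, at 7.58 and 7.23, lay farther apart from each other than the nearest arrays of the pools. Abcd2 read between 3.77 and 3.89 on all 4 arrays, under the level filter in both pools, so that signal above background is not shown.

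The alpha-oxidation genes parted. Phyh, the phytanoyl-CoA hydroxylase of the first step, read 11.97 and 11.98 in the lean pool and 12.00 and 11.93 in the obese pool, and the arrays overlapped with a difference of -0.01. Hacl1, the lyase that cleaves the hydroxylated chain at the next step, read 9.20 and 9.21 in the lean pool and 8.60 and 8.39 in the obese pool. Both obese arrays were lower by at least 0.60, which gives 1.64-fold (1.52 to 1.77) lower.

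Of the 7 oxidases 1 passed the 1.5-fold rule downwards and 0 upwards, against 4.66% and 4.2% of the genes that reached the level filter. Their median was 0.03 and took either sign under the alternatives. Hao2, an oxidase of long-chain 2-hydroxy acids, read 9.86 and 9.90 in the lean pool and 8.86 and 8.69 in the obese pool and was 2.15-fold (2.00 to 2.31) lower in the obese pool, without overlap. Its relative Hao1, the glycolate oxidase of liver, read 11.60 and 11.54 in the lean pool and 11.64 and 11.51 in the obese pool, so the arrays overlapped and the difference was 0.01. Kidney tubules also express several of these oxidases. The means of all 8 kidney tubule markers were under the level filter in the lean pool, as were 7 of 8 in the obese pool with Lrp2 as the exception, and their summed intensity was 158 and 146 on the lean arrays and 162 and 188 on the obese arrays.

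The remaining oxidases stayed within a factor of 1.2. Uox, the urate oxidase that forms the crystalline core of rodent peroxisomes, read 11.53 and 11.51 in the lean pool and 11.71 and 11.72 in the obese pool, a small difference of 0.19 without overlap. Ddo, the oxidase of D-aspartate, read 5.67 and 5.51 in the lean pool and 5.76 and 5.91 in the obese pool, near the level filter, with a difference of 0.25. Pipox, which oxidises sarcosine and pipecolate, differed by 0.05. Paox, the polyamine oxidase, and Dao, the D-amino acid oxidase, differed by 0.03 and -0.06 with arrays that overlapped.

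None of the 3 genes of ether lipid synthesis passed the 1.5-fold rule. Agps, which places the ether bond, read 7.20 and 7.22 in the lean pool and 7.28 and 7.29 in the obese pool, a difference of 0.07. Gnpat, the acyltransferase that precedes it, differed by -0.20 with overlapping arrays, at 7.62 and 7.49 in the lean pool and 7.53 and 7.18 in the obese pool. Far1, which supplies the fatty alcohol, differed by -0.38, but its lean arrays read 5.35 and 4.92 and both pools were under the level filter.

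The 11 peroxins differed little but in 1 direction. Their differences were all above 0, from 0.01 to 0.43 with a median of 0.27, and 10 or 11 stayed above 0 under each of the 10 alternatives for normalisation, offset, probe sets and arrays. None was 1.5-fold apart, and 6 were 1.2-fold higher with a gap of 0.1, by which 9.54% of all genes were higher. That rule counts only genes at or above the level filter, and 1384 of those 7555 passed it upwards. For 9 of the 11 both obese arrays lay above both lean arrays, against 27.5% of all genes and 38.5% of those at or above the level filter, which all 11 reached. The size hung on the obese original array, without which the median was 0.17, whereas without the obese technical replicate array it was 0.36. Over the peroxins the obese original array read higher than its replicate by a median of 0.19.

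The peroxins with the largest differences were Pex11a and Pex16. Pex11a, which elongates and divides peroxisomes and is a known PPAR alpha target in rodents, averaged 5.88 ± 0.17 (SD, n = 2 arrays) in lean and 6.31 ± 0.03 in obese liver. Both obese arrays lay above both lean arrays, at 1.35-fold (1.22 to 1.49). Pex16, a receptor of membrane proteins, read 8.40 and 8.39 in the lean pool and 8.75 and 8.81 in the obese pool, at 1.31-fold (1.28 to 1.34), and the arrays of each pool agreed closely. Its partners in membrane assembly, Pex3 and Pex19, differed by 0.26 and 0.25, again without overlap. The other probe set of Pex19 differed by 0.21.

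Import receptors and the docking complex ran alike. Pex5, the receptor of the common carboxy-terminal signal, read 8.06 and 7.99 in the lean pool and 8.43 and 8.26 in the obese pool, at 1.25-fold (1.15 to 1.36). Pex7, the receptor of the amino-terminal signal, differed by 0.31, with 6.95 on the obese original and 6.62 on the obese technical replicate array against 6.46 and 6.49 in the lean pool. The docking proteins Pex14 and Pex13 differed by 0.27 and 0.22. None of these 4 had overlapping arrays.

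Genes that recycle the import receptor differed less evenly. Pex2, a ubiquitin ligase subunit, differed by 0.32 without overlap. Pex10, a subunit of the same ligase, read 6.19 and 6.38 in the lean pool and 6.40 and 6.20 in the obese pool, and the arrays overlapped with a difference of 0.01. Pex6, an ATPase that extracts the receptor, differed by 0.09 with overlap, and its other probe set by -0.0019.

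Vnn1, a pantetheinase on the cell surface that is a sensitive PPAR alpha target in rodent liver, read 6.66 and 6.64 in the lean pool and 7.96 and 7.53 in the obese pool. It was 2.13-fold (1.83 to 2.49) higher in the obese pool, with an SD over the obese arrays of 0.30. Lonp2, the protease of the peroxisomal matrix, read 10.54 and 10.55 in the lean pool and 10.79 and 10.74 in the obese pool, a difference of 0.22 without overlap. The membrane proteins Pxmp2, a channel for small solutes, and Pxmp4 differed by 0.08 and -0.11, and the arrays of Pxmp4 overlapped.

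**Figure D3:**
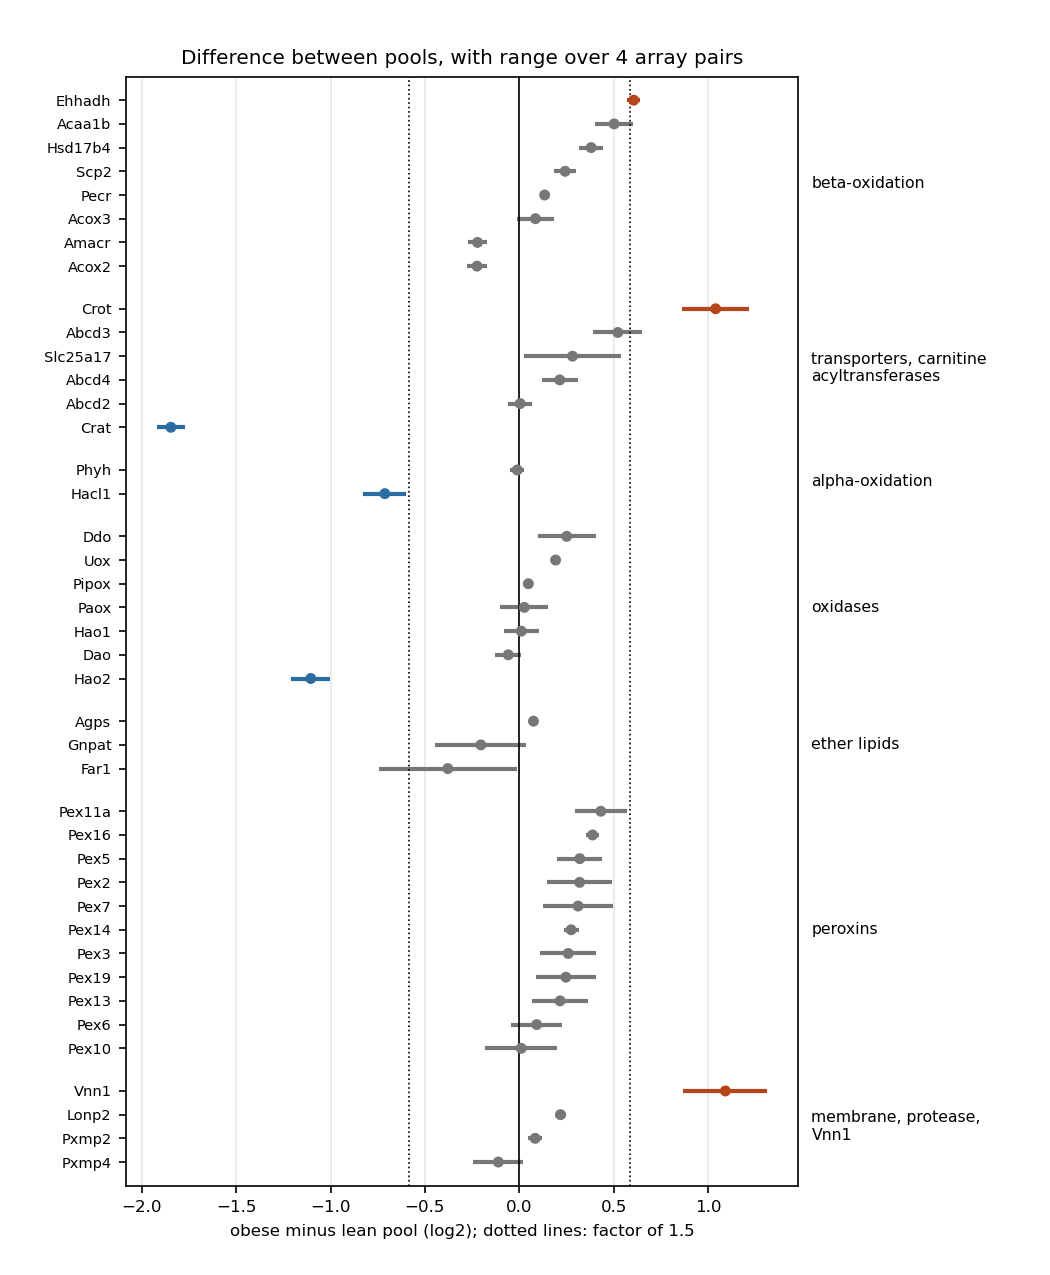
Points give the difference of each gene between the obese and the lean pool (x axis, log2) and bars its range over the 4 pairs of arrays, with genes grouped by role and dotted lines at a factor of 1.5. Colour marks Ehhadh, Crot and Vnn1 (higher) and Crat, Hacl1 and Hao2 (lower), and all 11 peroxins lie to the right of 0 with bars that cross 0 for Pex6 and Pex10.

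**Figure D4:**
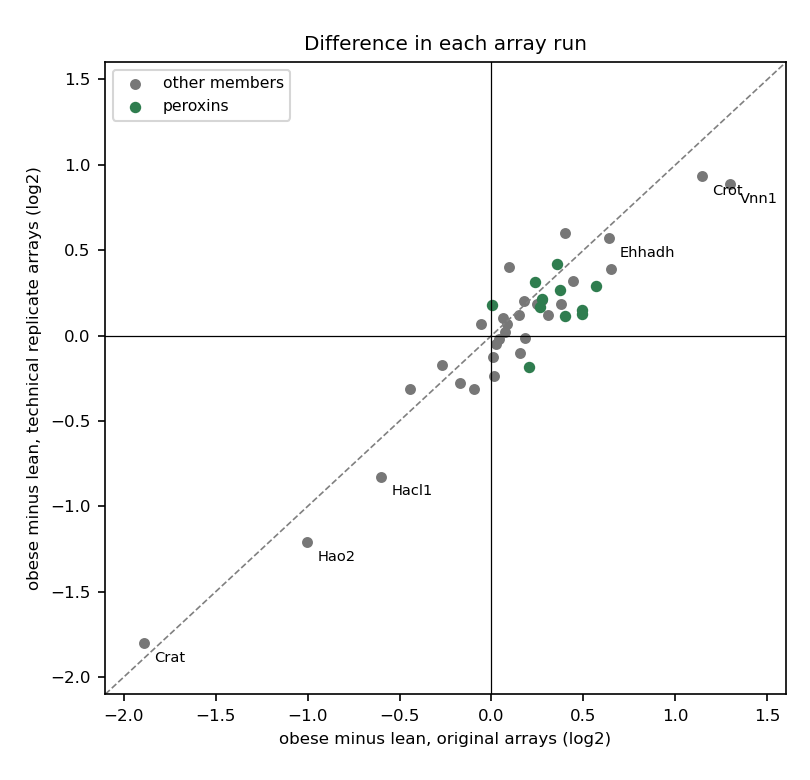
Each point is a peroxisomal gene, with the obese minus lean difference on the original arrays (x axis, log2) against that on the technical replicate arrays (y axis, log2), peroxins in green and the dashed line at equal values. The 6 genes past the 1.5-fold rule keep their direction in both runs, and 8 of the 11 peroxins lie below the line.

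Of a list of 51 other peroxisomal genes 37 were measured, and 36 of these reached the level filter. Differences were above 0 for 25 of the 37, a share near the 63.6% of all genes that reached the filter. For 23 of the 37 both obese arrays lay above both lean arrays, against 27.5% of all genes and 38.5% of those at the filter. For 5 both lay below, against 18.5% and 19.6%. By the 1.5-fold rule 5 of the 37 were higher (against 2.19% of all genes, or 4.2% of those that reached the filter) and 0 were lower (against 2.43% and 4.66%). Their median was 0.17. Acsl5, an acyl-CoA synthetase found at several membranes, was 1.89-fold higher (1.80 to 1.98). Agxt, the aminotransferase that clears glyoxylate, was 1.72-fold higher (1.63 to 1.82), and Ephx2, the soluble epoxide hydrolase, 1.72-fold (1.54 to 1.92). Nudt19, a hydrolase of coenzyme A, was 1.66-fold higher (1.49 to 1.85). The fifth gene past the rule was Tmem135, and with the technical replicate arrays alone 3 of the 37 passed. Catalase (Cat), the enzyme that removes the hydrogen peroxide of the oxidases, read 12.28 and 12.35 in the lean pool and 12.38 and 12.22 in the obese pool, so its arrays overlapped and the difference was -0.01.

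PPAR alpha targets outside the peroxisome went both ways, more of them upwards. Differences were above 0 for 19 of the 25 measured, against 63.6% of the genes that reached the level filter. For 17 both obese arrays lay above both lean arrays, against 27.5% of all genes and 38.5% of those at the filter. For 4 both lay below, against 18.5% and 19.6%. By the 1.5-fold rule 5 of the 25 measured were higher, against 2.19% of all genes and 4.2% of those that reached the level filter, and 2 were lower, against 2.43% and 4.66%. Their median was 0.21. Me1, the malic enzyme, was 2.69-fold higher (2.52 to 2.86), Cyp4a1, a fatty acid hydroxylase, 2.27-fold (2.14 to 2.41), the hormone Fgf21 1.84-fold (1.64 to 2.08) and the fatty acid transporter Cd36 1.76-fold (1.52 to 2.04). The lower genes were Ucp3, 2.57-fold (2.41 to 2.73), and Pdk4, 1.68-fold (1.55 to 1.82), and both are also expressed in skeletal muscle, whose part was not tested. The obese mean of Ucp3 was under the level filter, which leaves its fold without a firm size. Several genes on this list have regulators besides PPAR alpha, and Me1 is also a lipogenic gene.

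The receptor itself was not higher. Ppara read 8.94 and 8.96 in the lean pool and 8.66 and 8.61 in the obese pool, a difference of -0.31 without overlap. Its partners Rxra, Rxrb and Rxrg differed by -0.03, -0.11 and 0.45, and only the arrays of Rxra overlapped. Of 14 receptors and coregulators 0 were 1.5-fold higher, against 2.19% of all genes and 4.2% of those that reached the level filter. By the same rule 1 was lower, against 2.43% and 4.66%. Differences were below 0 for 10 of the 14. For 6 both obese arrays lay below both lean arrays, against 18.5% and 19.6%, and for 4 above, against 27.5% and 38.5%. The 1.5-fold lower gene was Ppargc1a, a coactivator that muscle expresses as well, at 2.60-fold (1.99 to 3.40). Its obese mean was likewise under the level filter.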

How the data were processed

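The 4 arrays were grouped by the phenotype in the labels. The authors deposited RMA intensities, per the submitters' processing notes, and the values show that their scale is linear; the software version, the genome build and the step back from log2 are not given in the sources used here. Their log2 was taken here with no further normalisation. RMA compresses very dim and very bright values, so folds there understate differences, and the number of arrays limits precision. Detection calls were not used here, so signal above background is not established for any gene.

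Of 29214 probe sets 15310 carried 1 gene symbol, 323 several and 13581 were unlisted. The gene table of GRCr8 held the identifiers of all 41 measured members and changed 0 symbols. Per gene, the probe set with the highest mean was taken. Among the members only Pex6 and Pex19 had more than 1. Outside the members Cd36 had 2, and its other probe set is not described here. Differences are obese minus lean pool means. No p-values were computed. Alternatives were quantile normalisation and cyclic loess (limma 3.58.1 in R 4.3.3), an offset of 16, other size rules and arrays left out. Only the 1.5-fold rule was tested on simulated data, with technical noise alone and planted differences past the factor. Members, lists and rules were chosen with earlier results of these data known. Full values are given for members past the 1.5-fold rule, for Cat and Ppara, and for most members at the ends of each role group. Of the latter, Pex11a is given by its means with SD, Far1 by its lean arrays and difference, and Pxmp4 by its difference. Up to 4 genes a list and direction were named. Tmem135, Rxra, Rxrb, Rxrg, Alb, Des, Col1a1, Dcn, Lrat, Pecam1, Lyve1 and Reln were named after their values were seen. Protein sequences were not used here.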

Additional observations from a re-analysis of the deposited data

How the results depend on the processing

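No paired analysis was possible because each phenotype is 1 pool, the arrays are technical replicates and no test was made. Crot and Vnn1 passed the size rule upwards and Crat and Hao2 downwards in each of the 14 alternatives, and Hacl1 in all but the factor of 2. The count of higher members was 12 with a factor of 1.2 and a gap of 0.1, and 2 to 4 otherwise; that of lower members was 2 or 3. With cyclic loess 2 members were higher and 3 lower, against 227 and 400 of all genes in place of 317 and 352. The median of the members was 0.12 with cyclic loess and 0.12 on the technical replicate arrays alone, and 0.12 to 0.18 when an array was left out, lowest without the obese original array. Members whose obese arrays lay below the lean arrays numbered 6 as reported, against 2677 of all genes, and 10 with cyclic loess, against 3506. On the technical replicate arrays alone, where fewer arrays must separate, they numbered 14, against 6425 of all genes. With an array left out they numbered 6 to 10, against 4053 to 4974 of all genes. Members on the higher side numbered 22 with cyclic loess, against 3504 of all genes, and 27 on the technical replicate arrays, against 8041. The median of the oxidases changed sign, to -0.0013 with quantile normalisation, -0.042 with cyclic loess and -0.023 on the technical replicate arrays, and ran from -0.037 to 0.073 when an array was left out; the cause was not tested. Over the members, the technical replicate minus the original array of a pool had a standard deviation of 0.12 (lean) and 0.15 (obese). For the obese arrays the median of that difference was -0.07, a shift that the standard deviation does not hold. Differences between the pools under about 0.2 are not far from this technical spread, and the spread between animals was not measured. Alternatives by role group and for the other lists were added after the data were seen. An alternative background of genes that reached the level filter is given with the main counts. These are the counts of the members, the peroxins, the other peroxisomal genes, the PPAR alpha targets and the receptors.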
